A study of Mus musculus with 2 samples.

Results

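The transcription factors Gata2, Gata3, Gata6, Sox2, Sox4 and Sox9, 6 genes taken by their symbols, were followed across the cells of the mouse prostate. All 6 were present among the 32285 genes listed for both libraries. The cells came from wild-type male C57BL6 mice by papain and TrypLE dissociation, and the labels name no treatment in either group. The ages of the mice and the number pooled per library were not given in the sources used here. One group, the ventral lobes, was sequenced as 1 library with the v2 chemistry of 10x Genomics, and the other, the proximal and periurethral region next to the urethra, as 1 library with v3. Wherever the libraries are set against each other, region and chemistry cannot be told apart. With 1 library per group no difference has a replicate check and no test was made. All intervals are exact 95% counting intervals.

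GATA factors are zinc finger proteins that bind short DNA sites with a GATA core. SOX factors bind the minor groove of DNA through a high mobility group box. Several of them are known for setting or holding cell identity in epithelia. Gata2 and Gata3 are known from luminal epithelia, and GATA2 is a partner of the androgen receptor in prostate cells. Sox9 is known from prostate bud epithelium and Sox2 from stem cells and basal prostate epithelium. Sox4 belongs to the SOX group C, and Gata6 is best known from endoderm and mesoderm. In the mouse prostate the lobes carry secretory luminal cells that differ in the proteins they secrete, while the ducts near the urethra are lined by proximal luminal cells, and basal cells lie beneath both.

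Positions are given on the GRCm38 build. Gata2 spans 88193891 to 88207032 on the plus strand of chromosome 6, and Gata3 spans 9857078 to 9890034 on the minus strand of chromosome 2. Sox4 spans 28948919 to 28953713 on the minus strand of chromosome 13, and Sox9 spans 112782224 to 112787760 on the plus strand of chromosome 11. Sox2 spans 34650405 to 34652461 on the plus strand of chromosome 3. It lies inside the noncoding gene Sox2ot, which runs on the same strand from 34104270 to 34682619, so reads from the shared stretch could belong to either gene.

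The 250 bases upstream of a RefSeq start are shown for Gata2, whose level spread widely over the luminal groups, and for Sox2, which sits within another transcript. Neither window overlaps an annotated exon, and both come from RefSeq on GRCm38.p6, plus strand, at chr6:88193641-88193890 for Gata2 and chr3:34649745-34649994 for Sox2. Capitals mark a match to a SOX motif.
Gata2: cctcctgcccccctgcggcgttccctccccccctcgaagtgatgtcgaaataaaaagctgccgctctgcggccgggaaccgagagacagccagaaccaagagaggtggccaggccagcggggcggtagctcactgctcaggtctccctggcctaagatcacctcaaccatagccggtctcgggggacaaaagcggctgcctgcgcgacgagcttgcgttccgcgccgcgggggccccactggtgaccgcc
Sox2: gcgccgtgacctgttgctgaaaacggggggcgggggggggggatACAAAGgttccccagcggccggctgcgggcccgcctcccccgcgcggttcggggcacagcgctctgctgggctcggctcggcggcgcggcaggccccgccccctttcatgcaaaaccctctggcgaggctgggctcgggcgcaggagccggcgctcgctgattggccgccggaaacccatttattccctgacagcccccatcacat
Both strands were searched. The GATA motif was taken as AGATAA or its variant AGATAG, and also as TGATAA or its variant TGATAG. The SOX motif was taken as ACAAAG or its variant ACAATG. No GATA motif was found in the 5 windows searched, which belong to Gata2 (2 starts), Gata3, Sox2 and Sox4. Windows of Gata6 and Sox9 were not searched. Of the windows searched, only that of Sox2 held a SOX motif, which starts at position -206 counted from its start site. Of 32851 promoter windows of the same length, 26.5% held a GATA motif and 25.2% a SOX motif, so a single match is common. The G and C share was 67.2% in the Gata2 window and 72% in the Sox2 window.

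The libraries held 2221 ventral and 4344 proximal barcodes, of which 1988 and 3705 passed as cells. The median number of UMIs per cell, the tags that count captured RNA molecules, was 25758.5 for ventral and 15260 for proximal cells. The libraries shared 0 cell barcodes. Cells were clustered in each library without the 6 members or their related lists among the variable genes, and each cluster was given the name of its closest marker class. Secretory luminal-like cells were divided by their leading secretory genes. Sbp-rich cells (the ventral type) numbered 1603 ventral and 160 proximal, Msmb-rich cells (the dorsolateral type) 107 and 163, and Tgm4-rich cells (the anterior type) 386, in the proximal library only under this naming. Proximal luminal-like cells numbered 80 and 694, basal-like cells 141 and 912, and fibroblast-like cells 516 in the proximal library. Clusters of 253 Ly6d-led and 422 haemoglobin-led proximal cells stayed unnamed, because genes of other classes were more frequent among their leading genes, and both scored best as proximal luminal.

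Levels are CPM, a gene's UMIs per 1000000 of the UMIs summed over a group. In a summed group, fewer expressing cells and less RNA per cell cannot be told apart. Secretory transcripts fill much of this total in some groups. The 29 most abundant genes of the libraries took 58.4% of UMIs in ventral and 61.3% in proximal Sbp-rich cells, against 15.6% in Tgm4-rich and 15.6% in proximal proximal luminal-like cells. Within a library, ratios against Sbp-rich cells, and against the ventral secretory luminal-like cells that are mostly Sbp-rich, are therefore also given on a total without those genes. That change of total lowered the median log2 ratio of all genes from 0.83 to -0.29 for Tgm4-rich over Sbp-rich cells and from 0.89 to 0.13 for proximal luminal-like over secretory luminal-like cells of the ventral library. Macrophage-like cells, 30 ventral and 79 proximal with median depths of 3751 and 11922 UMIs, served as the background for free RNA.

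**Figure D1:**
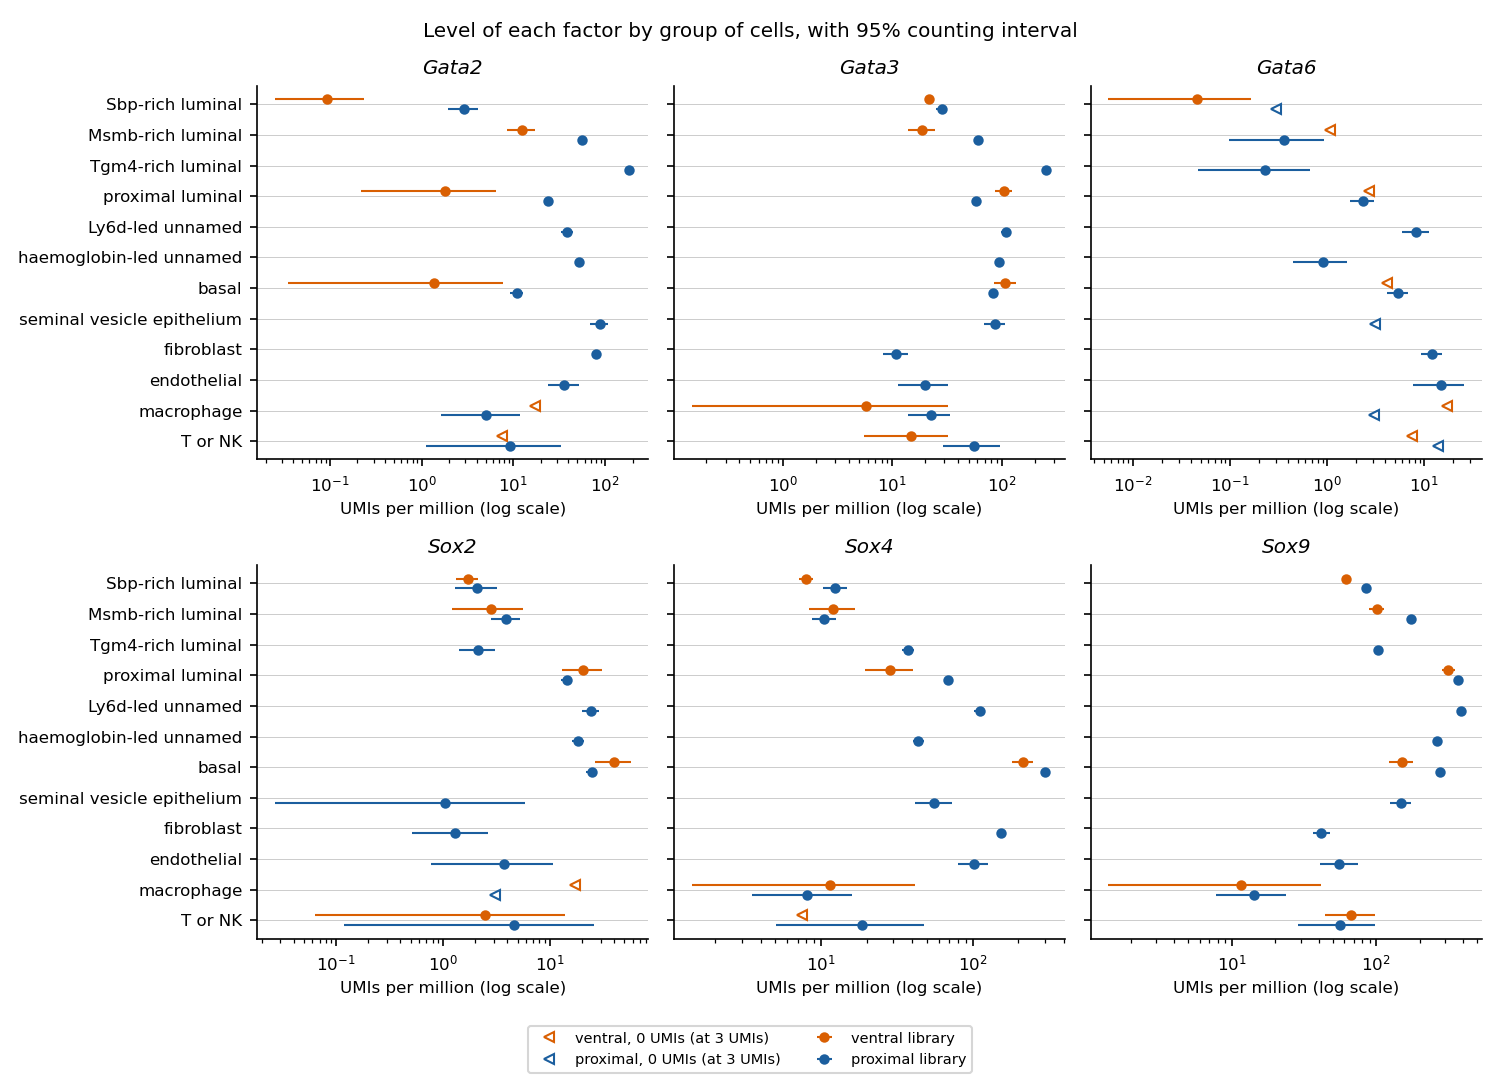
Level of the 6 factors in each group of cells, as CPM on a log axis with 95% counting intervals, with the ventral library in orange and the proximal library in blue. Open triangles mark groups with 0 UMIs and stand at the level of 3 UMIs. Gata2 peaks at 183 CPM in Tgm4-rich cells, Sox4 at 302 CPM in proximal basal-like cells, and Gata6 stays under 15 CPM in every group.

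Gata2 separated the lobe-type luminal groups. In the proximal library it stood at 183 CPM (176 to 191) in Tgm4-rich cells, 55.7 CPM (51.4 to 60.3) in Msmb-rich cells and 2.87 CPM (1.93 to 4.13) in Sbp-rich cells, and these intervals did not overlap. In the ventral library it stood at 12.4 CPM (8.63 to 17.2) in Msmb-rich cells and at 0.0923 CPM (0.0251 to 0.236) in Sbp-rich cells, where 4 UMIs were counted among 1603 cells. Sbp-rich cells were thus low in both libraries and Msmb-rich cells higher in both. The proximal Sbp-rich level lay within the interval of macrophage-like cells of that library, 5.08 CPM (1.65 to 11.9), and is read as background. It also lay within that interval without the cell holding the most Gata2 UMIs, 2.13 CPM (0.258 to 7.70). Ventral macrophage-like cells held 0 Gata2 UMIs in 30 cells, which sets only a loose background. It was 17.3 CPM for 3 UMIs, and the exact interval reached 21.3 CPM.

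Outside the lobe types, Gata2 was also found in seminal vesicle epithelium-like and stromal cells. Its level was 87.3 CPM (69.5 to 108) in the 26 seminal vesicle epithelium-like cells, 80.4 CPM (73.0 to 88.3) in fibroblast-like cells and 35.9 CPM (24.0 to 51.5) in the 61 endothelial-like cells of the proximal library. The first of these did not differ from fibroblast-like cells beyond counting error. Proximal luminal-like cells held 23.9 CPM (21.9 to 26.0) and basal-like cells 10.9 CPM (9.15 to 12.9). The basal-like interval overlaps that of all macrophage-like cells but not that without their 1 top cell. In the ventral library, proximal luminal-like cells held 2 UMIs of Gata2 and basal-like cells 1.

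At equal depth the share of cells with a Gata2 UMI gave the same order for Tgm4-rich, fibroblast-like, Msmb-rich and proximal luminal-like cells. The fibroblast-like and Msmb-rich intervals overlapped, and unthinned the Msmb-rich share was above the fibroblast-like one. After each cell was thinned to 1000 UMIs, Gata2 was found in 15.5% (12.0% to 19.5%) of Tgm4-rich cells, 6.67% (4.66% to 9.19%) of fibroblast-like cells, 4.94% (2.16% to 9.50%) of Msmb-rich cells and 1.88% (1.00% to 3.19%) of proximal luminal-like cells. It was found in 0 of 160 Sbp-rich and 0 of 78 macrophage-like cells. With 0 set to 3 cells, which is not an exact limit, this allows shares of up to 1.88% and 3.85%. Unthinned, the shares were 81.3% in Tgm4-rich, 46.5% in fibroblast-like, 79.1% in Msmb-rich, 38.0% in proximal luminal-like, 15% in Sbp-rich and 3.8% in macrophage-like cells. Their median depths were 32294, 10314, 65875, 21511, 62218.5 and 11922 UMIs in that order. Thinned totals still include the abundant secretory genes, so at equal depth Sbp-rich cells hold fewer UMIs of other genes.

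Gata3 followed the same rank within the lobe types of the proximal library with a smaller spread. Tgm4-rich cells held 253 CPM (245 to 262), Msmb-rich cells 61.0 CPM (56.5 to 65.8) and Sbp-rich cells 28.2 CPM (25.1 to 31.7). In the ventral library Msmb-rich cells, at 18.8 CPM (14.1 to 24.5), and Sbp-rich cells, at 21.5 CPM (20.2 to 22.9), did not differ beyond counting error, with a ratio of 0.872 (0.648 to 1.15), but without the abundant genes the ratio was 0.635 (0.472 to 0.837). After thinning, Gata3 was found in 20.5% (16.5% to 24.9%) of Tgm4-rich, 8.64% (4.81% to 14.1%) of Msmb-rich and 1.88% (0.388% to 5.38%) of proximal Sbp-rich cells. Unthinned these shares were 80.6%, 85.3% and 63.8%, so the order shows only at equal depth. Thinned totals still include the abundant genes, which took 15.6% of UMIs in Tgm4-rich, 31.4% in Msmb-rich and 61.3% in proximal Sbp-rich cells. On the total without them Gata3 stood at 300, 88.9 and 72.9 CPM in that order.

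In basal-like and proximal luminal-like cells Gata3 stood above its level in stroma. Ventral basal-like cells held 108 CPM (85.0 to 134) and proximal ones 83.1 CPM (78.1 to 88.4). Proximal luminal-like cells held 104 CPM (86.0 to 125) in ventral and 57.9 CPM (54.7 to 61.2) in proximal tissue. Fibroblast-like cells held 10.9 CPM (8.26 to 14.0) and endothelial-like cells 19.8 CPM (11.3 to 32.2). The proximal macrophage-like value of 22.4 CPM (14.0 to 33.8) rested on 1 cell, which held 86.4% of its UMIs. Without it the value was 3.20 CPM (0.660 to 9.35), an interval that overlapped the fibroblast-like one and lay below the proximal Sbp-rich and the endothelial-like level. A single Gata3 UMI in ventral macrophage-like cells gave 5.78 CPM (0.146 to 32.2), an interval that holds the levels of both lobe types. Gata3 is also known from T cells, and T or NK-like cells of the proximal library held 55.8 CPM (28.8 to 97.5) over 27 cells.

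Across the lobe types the members were compared directly. Of the 5 members with at least 20 UMIs, 3 were past 2-fold in Tgm4-rich against Sbp-rich cells of the proximal library, all higher, where 45.2% of 13244 genes were past 2-fold in either direction (39.1% higher, 6.17% lower). Gata2 was 63.8-fold higher (44.3 to 95.5), Gata3 8.96-fold (7.94 to 10.2) and Sox4 3.01-fold (2.47 to 3.70). On the total without the abundant genes these became 29.3-fold (20.4 to 43.9), 4.12-fold (3.65 to 4.66) and 1.38-fold (1.13 to 1.70), so Sox4 no longer passed. The Sbp-rich levels of Gata2, Sox2 and Sox4 did not lie above those of macrophage-like cells. For Sox2 the level was 2.08 CPM (1.29 to 3.18), against 0 CPM (0 to 3.75). Folds of these 3 genes over Sbp-rich cells, here and below, thus have a denominator at background. Sox9 changed direction between these totals, from a ratio of 1.2 (1.10 to 1.31) to 0.553 (0.507 to 0.603), and so is not placed. Sox2 gave 1.03 (0.564 to 1.91) and 0.472 (0.259 to 0.875).

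Msmb-rich against Sbp-rich cells gave 3 of 5 members past 2-fold in the proximal library, all higher, where 30.1% of 13176 genes were past it (26.5% higher, 3.57% lower), and 1 of 5 in the ventral library, where 10.6% of 12577 were (7.76% higher, 2.82% lower). Gata2 was that member in the ventral library, 134-fold higher (48.0 to 520), and was 19.4-fold higher (13.4 to 29.2) in the proximal library. On the total without the abundant genes the Gata2 ratios were 97.7 (35.0 to 379) and 10.9 (7.55 to 16.5). In the proximal library Gata3 was 2.16-fold (1.88 to 2.49) and Sox9 2.04-fold higher (1.88 to 2.22), but without the abundant genes 1.22-fold (1.06 to 1.41) and 1.15-fold (1.06 to 1.25), short of 2-fold. Sox4, at 0.850 (0.654 to 1.10), was 0.480 (0.370 to 0.623) on that total.

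Tgm4-rich against Msmb-rich cells, which differ less in their share of secretory transcripts, also gave 3 of 5 members past 2-fold, all higher, where 16.8% of 13600 genes were past it (7.91% higher, 8.9% lower). These were Gata2 at 3.29-fold (3.01 to 3.60), Gata3 at 4.15-fold (3.82 to 4.52) and Sox4 at 3.54-fold (2.89 to 4.38). The Msmb-rich Sox4 level, 10.5 CPM (8.70 to 12.6), lay within the macrophage-like interval (3.51 to 16.0), so the Sox4 fold has a denominator at background. Sox9 was 1.70-fold lower (1.58 to 1.82) and Sox2 1.82-fold lower (1.11 to 3.05) in the Tgm4-rich cells. On the total without the abundant genes both came to ratios below 0.5, 0.479 (0.446 to 0.514) for Sox9 and 0.446 (0.267 to 0.735) for Sox2.

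**Figure D2:**
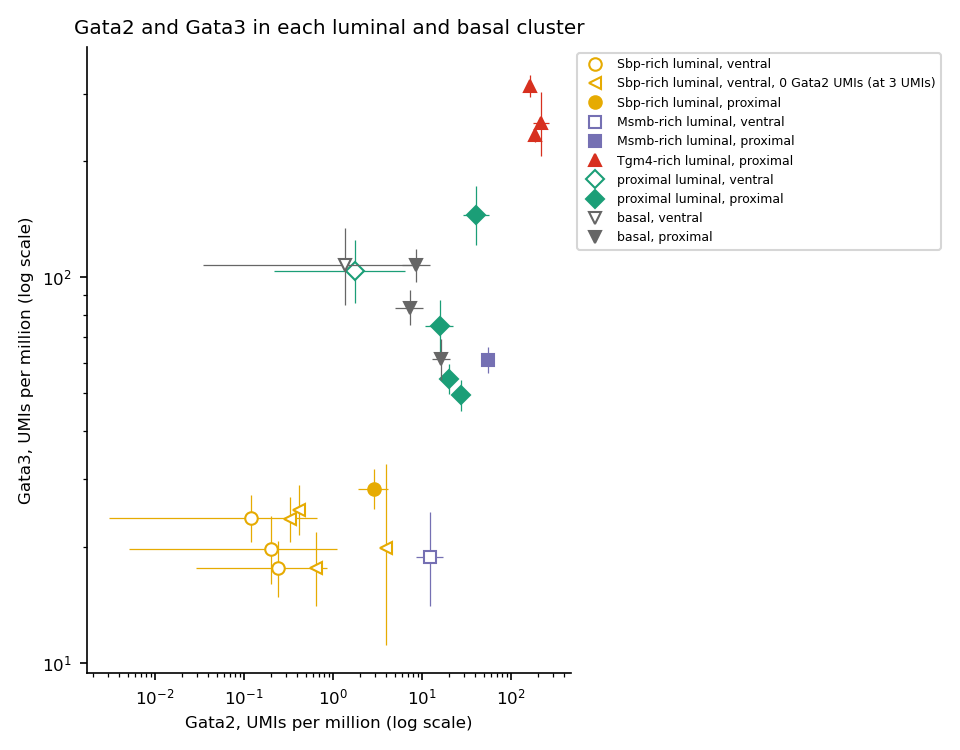
Gata2 (x axis) against Gata3 (y axis) in each luminal-like and basal-like cluster, both as CPM on log axes with 95% counting intervals. Filled marks are proximal and open marks ventral clusters, and left-pointing triangles had 0 Gata2 UMIs and stand at 3 UMIs. The 3 Tgm4-rich clusters lie at 164 to 220 CPM of Gata2 and 234 to 314 CPM of Gata3, above all other clusters in both.

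The 3 Tgm4-rich clusters resembled each other in both factors although their depth differed. Gata2 stood at 188, 164 and 220 CPM and Gata3 at 234, 314 and 252 CPM in clusters with medians of 54410.5, 15192 and 5592 UMIs per cell. In the 287 Tgm4-rich cells that could be thinned to 10000 UMIs, Gata2 was found in 77.0%, Gata3 in 80.8% and both in 62.4%, against 62.2% for the product of the single shares. The share with both was close to that product. The 4 proximal luminal-like clusters of the proximal library ranged from 15.8 to 40.8 CPM for Gata2 and from 49.4 to 145 CPM for Gata3.

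The remaining GATA genes and cofactors were given by a list of 13. Gata1, Gata4 and Gata5 were nearly absent, with 10, 10 and 0 UMIs in the ventral and 23, 20 and 17 UMIs in the proximal cells. In Tgm4-rich over Sbp-rich cells 4 of the 8 list genes tested were past 2-fold and higher and 0 were lower, with a median log2 ratio of 1.17 against 0.83 over all genes. This stood beside 39.1% of all genes higher and 6.17% lower. They included Zfpm1, which encodes the GATA cofactor FOG1, at 18.9 against 3.47 CPM, the GATA-type repressor Trps1 at 92.0 against 32.4 CPM, and Gatad2a at 47.1 against 17.7 CPM. Of 9 partner lineage factors tested, 3 were higher and 0 lower in the same comparison, a share below the 39.1% of all genes. They included Ehf, an ETS factor of epithelia, at 522 against 156 CPM, and the POU factor gene Pou2f3, at 8.41 against 1.68 CPM. The list median was 0.52 against 0.83 over all genes. On the total without the abundant genes 1 cofactor, Zfpm1, was past 2-fold and higher, with a list median of 0.051, beside 6.3% of all genes higher and 19.9% lower. Of the partner factors 2 were then higher and 4 lower, with a median of -0.61.

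Proximal luminal-like cells carried Sox9 and Sox2 above the secretory luminal-like cells in both libraries, and Sox4 in the proximal one. Sox4 was also higher in the ventral library, but not beyond counting error once mixed cells were left out. Sox9 stood at 317 CPM (285 to 352) against 64.4 CPM in the ventral and at 370 CPM (362 to 378) against 121 CPM in the proximal library. Sox2 stood at 20.6 CPM (13.1 to 31.0) against 1.78 CPM and at 14.4 CPM (12.9 to 16.1) against 2.69 CPM. Sox4 stood at 28.7 CPM (19.6 to 40.5) against 8.23 CPM and at 69.1 CPM (65.7 to 72.7) against 21.3 CPM. The ventral Sox4 level lay within the interval of macrophage-like cells there, 11.6 CPM (1.40 to 41.7) from 2 UMIs. The ventral Sox2 level lay within theirs as well, 0 CPM (0 to 21.3) over 30 cells, so neither is shown to stand above that background at this depth. The secretory luminal-like levels of both genes in the ventral library lay within these intervals too. That of Sox2 in the proximal library lay within the macrophage-like interval there (0 to 3.75). Folds over these levels, here and below, have a denominator at background.

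In the ventral library 4 of 5 members tested were past 2-fold, all higher in proximal luminal-like cells, where 36.7% of 12749 genes were past it (35.6% higher, 1.14% lower) and the median log2 ratio of all genes was 0.89. Sox2 was 11.6-fold higher (6.98 to 18.6), Sox9 4.92-fold (4.4 to 5.50), Gata3 4.88-fold (3.99 to 5.92) and Sox4 3.49-fold (2.35 to 5.01). Without the abundant genes these were 6.83-fold (4.10 to 11), 2.89-fold (2.58 to 3.23), 2.86-fold (2.34 to 3.47) and 2.05-fold (1.38 to 2.94). Relative to the median of all genes, their log2 ratios were 2.65, 1.41, 1.39 and 0.91. Of the 80 ventral proximal luminal-like cells, 22 held over 5% of their UMIs in Sbp and Spink1, secretory transcripts of the surrounding lobe, and 6 of 7 secretory luminal markers were above 0, summing to 141448 CPM. Without such cells the ratios were 16.6 for Sox2, 6.47 for Sox9 and 6.77 for Gata3, while that of Sox4 was 1.51 (0.648 to 3.01), an interval that includes 1. A single cell held 31.2% of the Sox4 UMIs of that group.

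In the proximal library all 6 members were past 2-fold, 4 higher and 2 lower, where 42.2% of 16167 genes were past it (24.4% higher, 17.7% lower). Gata6 was 11.4-fold higher (5.16 to 29.8), Sox2 5.35-fold (4.23 to 6.83), Sox4 3.24-fold (2.97 to 3.55) and Sox9 3.07-fold (2.96 to 3.19) in proximal luminal-like cells. Gata2 was 3.73-fold lower (3.40 to 4.10) and Gata3 2.16-fold lower (2.02 to 2.30). When the unnamed clusters took their best-scoring class, Gata3 had a ratio of 0.606 (0.578 to 0.635) and 5 members remained past 2-fold. Gata3 thus stood on opposite sides in the libraries, and the reason was not tested. The ventral secretory luminal-like cells held no Tgm4-rich cells. The proximal luminal-like level of Gata3 differed too, at 104 CPM in the ventral and 57.9 CPM in the proximal library. Against proximal Sbp-rich cells alone, all 6 members were past 2-fold and higher, where 49.4% of 14613 genes were past it (41% higher, 8.46% lower), with Gata3 at 2.05-fold (1.80 to 2.34) but at 0.941 (0.827 to 1.07) without the abundant genes. Gata2 was 8.30-fold higher (5.71 to 12.5), Sox2 6.92-fold (4.45 to 11.3), Sox4 5.58-fold (4.65 to 6.75) and Sox9 4.34-fold (4.05 to 4.66). On the other total these came to 3.81 (2.62 to 5.75), 3.18 (2.04 to 5.21), 2.56 (2.13 to 3.10) and 1.99 (1.86 to 2.14). Gata6, with 51 UMIs against 0, was 7.87-fold higher when the Sbp-rich group is set to 3 UMIs. The lower limit of its exact interval was 6.17, or 2.83 on the total without the abundant genes.

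Against Tgm4-rich cells, whose total is not filled by those transcripts, Gata2 and Gata3 stood on one side and Gata6, Sox2 and Sox9 on the other. There 5 members were past 2-fold, where 44.8% of 14907 genes were past it (24% higher, 20.8% lower). Gata2 was 7.69-fold lower (6.99 to 8.47) and Gata3 4.37-fold lower (4.10 to 4.67) in proximal luminal-like cells. Gata6 was 10.2-fold (3.30 to 51.1), Sox2 6.73-fold (4.56 to 10.3) and Sox9 3.61-fold higher (3.41 to 3.83), with only 3 Gata6 UMIs in the Tgm4-rich cells. The Tgm4-rich Sox2 level, 2.14 CPM (1.42 to 3.10), lay within the macrophage-like interval (0 to 3.75), so the Sox2 fold has a denominator at background. Sox4 was 1.85-fold higher (1.67 to 2.06). Without the abundant genes these ratios moved at most in the last digit given.

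Thinned shares of cells gave the same picture for Sox9, on totals that still include the abundant secretory genes. After thinning, 25% (16.0% to 35.9%) of proximal luminal-like cells in the ventral library had a Sox9 UMI, and 30.2% (26.8% to 33.8%) of those in the proximal library did. It was found in 7.05% (5.85% to 8.42%) of ventral Sbp-rich, 13.0% (8.21% to 19.1%) of proximal Msmb-rich and 11.5% (8.52% to 15.2%) of Tgm4-rich cells, and in 2.56% (0.312% to 8.96%) of proximal macrophage-like cells. Unthinned, the shares were 85.0%, 91.5%, 67.6%, 89.0%, 67.6% and 7.59% in that order. In CPM all 3 proximal lobe types lay above macrophage-like cells at 14.2 CPM (7.78 to 23.9), with Sbp-rich cells at 85.2 CPM (79.6 to 91.1), Tgm4-rich cells at 103 CPM (97.2 to 108) and Msmb-rich cells at 174 CPM (167 to 182).

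Of the partner lineage factors, 7 of 9 tested were higher and 1 lower in ventral proximal luminal-like cells, and 5 of 10 higher and 1 lower in the proximal library, with list medians of 1.81 and 0.99 against 0.89 and 0.12 over all genes. Klf5, a Kruppel-like factor of epithelial progenitors, stood at 293 against 27.8 CPM and at 672 against 47.7 CPM. Runx1, a runt factor, stood at 112 against 14.6 CPM and at 389 against 42.3 CPM. Among GATA cofactors 7 of 8 were higher in the ventral library, beside 35.6% of all genes, and 2 of 8 in the proximal library, near the 24.4% of all genes. Their median log2 ratios were 1.42 and 0.41. Without the abundant genes 3 of 8 cofactors were higher in the ventral library, with a median of 0.65, beside 12.7% of all genes, and 4 of 9 partner factors were higher and 1 lower, with a median of 0.95. That total left 1 of 8 cofactors higher in the proximal library and did not alter the partner counts, beside 18.2% of all genes higher. Lmo4, a LIM-only protein that bridges transcription complexes, stood at 500 against 46.9 CPM and at 451 against 76.4 CPM.

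**Figure D3:**
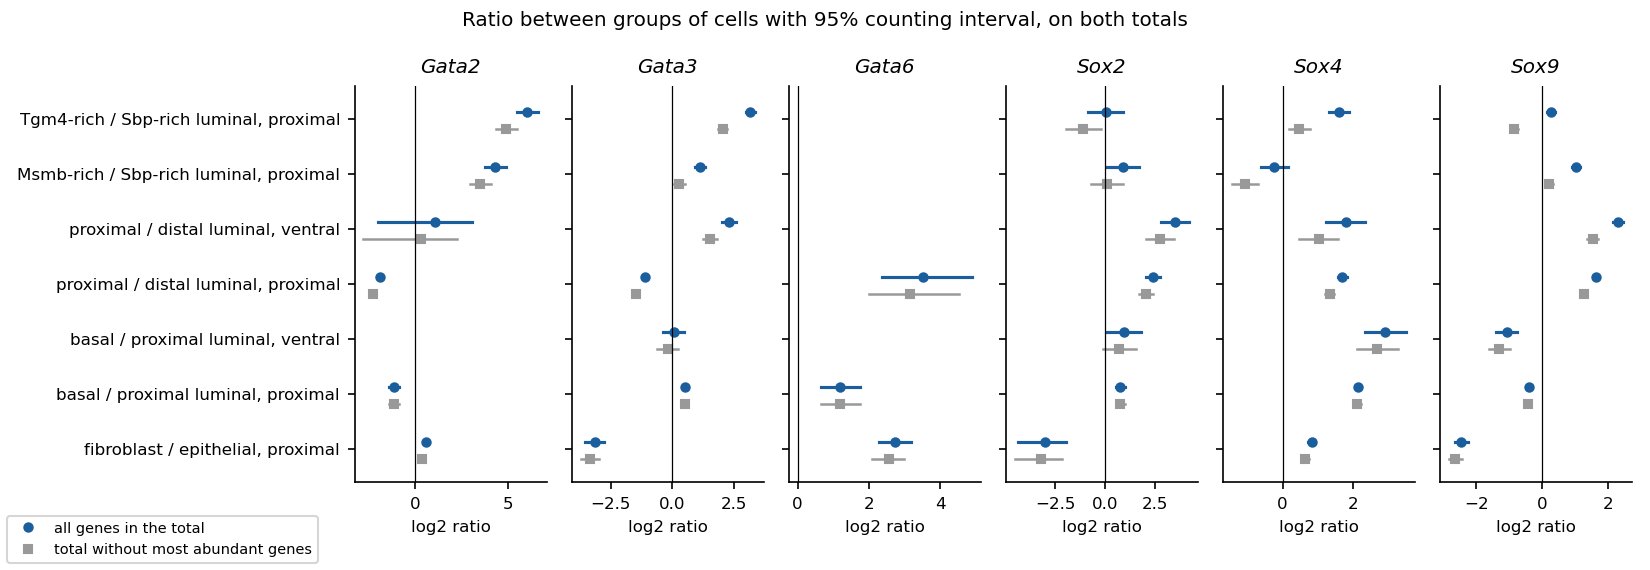
Ratio of each factor between groups of cells on a log2 axis, with 95% counting intervals, computed on all genes (blue circles) and on a total without the most abundant genes (grey squares). Gata3 lies to the right of 0 for proximal over distal luminal (all secretory luminal-like cells) in the ventral library, at a ratio of 4.88, and to the left in the proximal library, 2.16-fold lower. Ratios with 0 UMIs in a group or under 20 UMIs in all are not drawn.

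Basal-like cells were marked by Sox4. Ventral basal-like cells held 215 CPM (183 to 252) and proximal ones 302 CPM (293 to 312), the top level of Sox4 in each library. In the proximal library fibroblast-like cells followed at 155 CPM (144 to 166), then the Ly6d-led cells at 112 CPM (103 to 122) and endothelial-like cells at 101 CPM (80.7 to 126), which overlapped, and proximal luminal-like cells at 69.1 CPM. Sbp-rich cells, at 12.4 CPM (10.3 to 14.8), and Msmb-rich cells, at 10.5 CPM (8.70 to 12.6), did not lie above macrophage-like cells at 8.13 CPM (3.51 to 16.0). After thinning, ventral basal-like cells had a Sox4 UMI in 17.9% (11.9% to 25.2%) and proximal ones in 24.3% (21.6% to 27.3%), against 4.48% (3.06% to 6.30%) of proximal luminal-like cells of the proximal library and 2.56% (0.312% to 8.96%) of its macrophage-like cells. Unthinned, these shares were 53.2%, 77.1%, 46.4% and 5.06%.

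Basal-like against proximal luminal-like cells gave 2 of 4 members past 2-fold in the ventral library, where 32.4% of 7664 genes were past it (11.3% higher, 21.2% lower), and 3 of 6 in the proximal library, where 27.4% of 15248 were (15.5% higher, 11.9% lower). Sox4 was 7.49-fold (5.09 to 11.3) and 4.37-fold (4.12 to 4.65) higher. Sox9 was 2.11-fold lower (1.70 to 2.64) in ventral and 1.33-fold lower (1.28 to 1.39) in proximal basal-like cells. In the proximal library Gata6 was 2.30-fold higher (1.57 to 3.38) and Gata2 2.19-fold lower (1.80 to 2.66). Sox2 was 1.94-fold (1.08 to 3.51) and 1.72-fold (1.46 to 2.02) higher and so short of 2-fold in each. Gata3 gave ratios of 1.03 (0.765 to 1.39) and 1.44 (1.32 to 1.56), the first of which became 0.882 (0.653 to 1.18) without the abundant genes.

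Against secretory luminal-like cells, basal-like cells had 4 of 5 members past 2-fold and higher in the ventral library, where 37.3% of 12875 genes were past it (31.4% higher, 5.97% lower). In the proximal library 4 of 6 were higher and 1 lower, where 47.8% of 15914 were past it (28.2% higher, 19.6% lower). Sox4 was 26.1-fold (21.5 to 31.6) and 14.2-fold (13.1 to 15.4) higher and Sox2 22.5-fold (14.2 to 34.8) and 9.20-fold (7.26 to 11.7) higher. Without the abundant genes ventral Sox4 was 13.1-fold (10.8 to 15.8) and Sox2 11.3-fold (7.12 to 17.4) higher. The secretory luminal-like levels of Sox2 in both libraries and of Sox4 in the ventral one lay within the macrophage-like intervals. The folds over them thus have a denominator at background. Sox9 was 2.33-fold (1.91 to 2.83) and 2.31-fold (2.20 to 2.41) higher, but 1.17-fold (0.958 to 1.42) and 1.79-fold (1.71 to 1.87) without the abundant genes. Gata6 was 26.3-fold higher (12.1 to 67.8) in the proximal library and Gata2 8.15-fold lower (6.85 to 9.76). Gata3 was 5.04-fold higher (3.95 to 6.35), or 2.53-fold (1.98 to 3.18) without the abundant genes, in the ventral and 1.5-fold lower (1.40 to 1.61) in the proximal library.

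Fibroblast markers moved with the ventral basal-like group. All 7 of them were above 0 there and summed to 5400 CPM, against 4604 CPM for the 6 basal markers, and Dcn made up 5209 CPM of that sum while Col1a1 stood at 9.65 CPM and Col3a1 at 27.6 CPM. In proximal basal-like cells the 7 fibroblast markers summed to 1339 CPM, with Dcn at 1332 CPM. Within the proximal library fibroblast-like cells held less Sox4 than basal-like cells, and no ventral group was named fibroblast-like. The part of fibroblast RNA in the Sox4 level of either basal-like group was not tested.

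Several other SOX genes were higher in basal-like cells of the proximal library, and 2 were lower. Of 10 genes tested from a list of 16, 7 were past 2-fold and higher and 2 lower in the proximal library when proximal luminal-like cells were the reference, beside 15.5% and 11.9% of all genes, with a median log2 ratio of 1.56 against 0.02 over all genes. Sox6, a SOX group D factor, stood at 69.8 against 1.51 CPM and Sox11, which like Sox4 belongs to group C, at 24.8 against 0.321 CPM. Sox15 stood at 2.20 against 0.138 CPM. The lower ones were Sox13, at 3.91 against 11.9 CPM, and Sox10, at 0.733 against 1.88 CPM. In the ventral library 2 list genes could be tested, Sox6 at 38.6 against 0.898 CPM and Sox13 at 1.38 against 19.7 CPM. Trp63, the p63 factor that defines basal epithelium, stood at 93.7 against 2.69 CPM in the ventral and 65.2 against 1.06 CPM in the proximal library.

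Single clusters differed further. The 3 proximal basal-like clusters held 381, 316 and 210 CPM of Sox4. The cluster with the least Sox4 was led by Grp and by Ivl, which encodes the cornified envelope protein involucrin, and it held the most Sox9 of them, 349 CPM against 230 and 253 CPM. It also held 13.2 CPM of Gata6, with 56 UMIs, against 2.06 and 0.272 CPM, with 9 UMIs and 1 UMI. Sox2 varied little over these clusters, at 26.2, 21.5 and 26.2 CPM.

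Among proximal luminal-like clusters Sox2 varied more. It stood at 8.10, 14.0, 24.2 and 63.9 CPM in clusters of 278, 284, 78 and 54 cells, the last led by Gm12703 and Trpv2 with a median of 13570 UMIs. Sox4 stood at 33.2, 108, 46.0 and 112 CPM and Sox9 at 318, 443, 334 and 277 CPM in the same clusters. The cluster led by Tff3, which encodes a mucosal trefoil peptide, and Sbsn thus held the most Sox9 and, at 4.28 CPM, more Gata6 than the cluster led by Arl14 and Krt23, at 0.205 CPM. The unnamed Ly6d-led cells held 390 CPM (372 to 407) of Sox9, 112 CPM of Sox4, 24.4 CPM (20.2 to 29.1) of Sox2 and 8.25 CPM (5.92 to 11.2) of Gata6. Their Gata3 level was 108 CPM (99.5 to 118) and their Gata2 level 38.4 CPM (33.2 to 44.3). The haemoglobin-led cells held 262 CPM (253 to 271) of Sox9, 43.9 CPM (40.3 to 47.8) of Sox4, 18.5 CPM (16.1 to 21.1) of Sox2 and 0.903 CPM (0.451 to 1.62) of Gata6. They held 94.0 CPM (88.7 to 99.7) of Gata3 and 52.5 CPM (48.5 to 56.7) of Gata2, the latter overlapping Msmb-rich cells. Both unnamed groups thus held more Gata2 and Gata3 than the named proximal luminal-like cells. When both took their best-scoring class, the proximal library's ratios of proximal over secretory luminal-like cells were 0.390 (0.365 to 0.416) for Gata2 and 2.81 (2.71 to 2.91) for Sox9, and Gata3 was no longer past 2-fold.

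**Figure D4:**
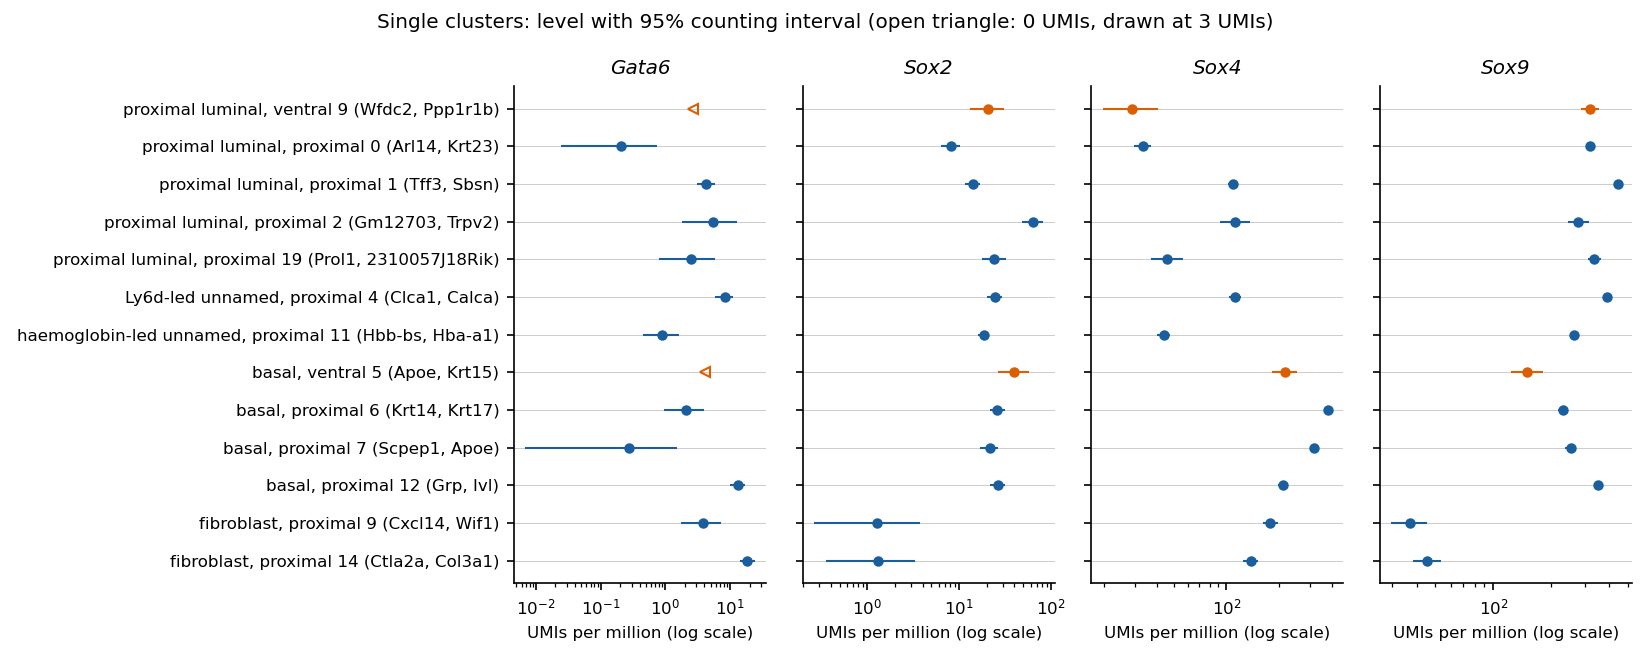
Gata6, Sox2, Sox4 and Sox9 in single clusters of the proximal luminal-like, unnamed, basal-like and fibroblast-like groups, as CPM on log axes with 95% counting intervals, ventral in orange and proximal in blue. Open triangles had 0 UMIs and stand at 3 UMIs. Gata6 is high in the Col3a1-holding fibroblast-like cluster at 18.5 CPM and the Ivl-holding basal-like cluster at 13.2 CPM, and Sox2 is at 63.9 CPM in a proximal luminal-like cluster of 54 cells.

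Fibroblast-like cells held Gata6, Sox4 and Gata2 and less Gata3, Sox2 and Sox9 than epithelium. Endothelial-like cells held Sox4 at 101 CPM, or 75.5 CPM (57.6 to 97.2) without the cell with the most Sox4 UMIs, and Gata2 at 35.9 CPM. A single cell held 42.2% of their Sox9 UMIs, at 55.7 CPM in all, and without it the Sox9 level was 34.9 CPM (22.8 to 51.1). Their Gata6 and Sox2 intervals overlapped those of fibroblast-like cells. Against the named luminal-like and basal-like cells of the proximal library, 4 of 6 members were past 2-fold, 1 higher and 3 lower, where 37.7% of 17711 genes were past it (24.5% higher, 13.3% lower). Gata6 was 6.68-fold higher (4.88 to 9.08), at 12.1 CPM (9.39 to 15.5) against 1.82 CPM. Gata3 was 8.84-fold lower (6.84 to 11.6), Sox2 8.08-fold lower (3.90 to 20.2) and Sox9 5.47-fold lower (4.80 to 6.27). Sox4 and Gata2 were 1.78-fold (1.65 to 1.91) and 1.49-fold (1.34 to 1.64) higher. Sox2, at 1.29 CPM (0.518 to 2.65) with 7 UMIs, and Gata3 did not lie above the macrophage-like levels. Sox9, at 41.8 CPM (36.5 to 47.6), did, against 14.2 CPM (7.78 to 23.9).

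The fibroblast-like clusters differed in Gata6. The cluster led by Ctla2a and the collagen gene Col3a1 held 18.5 CPM and that led by Cxcl14 and the secreted Wnt inhibitor gene Wif1 held 3.82 CPM. Gata2 stood at 86.8 and 72.1 CPM and Sox4 at 137 and 178 CPM in the same order. Endothelial-like cells held 14.9 CPM (7.67 to 25.9) of Gata6, but 1 cell carried 66.7% of those UMIs, and without it the level was 5.19 CPM (1.41 to 13.3). Gata6, which lies on chromosome 18 from 11052064 to 11085635 on the plus strand, had 0 UMIs in proximal Sbp-rich, macrophage-like, T or NK-like and seminal vesicle epithelium-like cells and 2 UMIs in the whole ventral library. Zfpm2, which encodes the GATA cofactor FOG2, stood at 12.0 CPM in fibroblast-like against 0.0879 CPM in epithelial cells. Of the SOX list, 4 of 11 were higher and 2 lower, beside 24.5% and 13.3% of all genes and with a median log2 ratio of 0.40 against 0.19. Sox8 stood at 27.6 against 1.36 CPM and Sox5 at 74.9 against 7.71 CPM.

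Sox2 and the overlapping Sox2ot had their highest levels in different groups. Sox2ot stood at 18.4 CPM (16.0 to 21.1) in Msmb-rich and 17.6 CPM (15.4 to 20.0) in Tgm4-rich cells, where Sox2 stood at 3.90 CPM (2.83 to 5.26) and 2.14 CPM (1.42 to 3.10). In proximal luminal-like cells Sox2ot stood at 8.30 CPM (7.14 to 9.61) and in basal-like cells at 11.3 CPM (9.52 to 13.4), where Sox2 stood at 14.4 and 24.8 CPM. The Ly6d-led cells were high in both, at 15.7 CPM (12.4 to 19.6) of Sox2ot and 24.4 CPM (20.2 to 29.1) of Sox2. In the ventral library Sox2ot had 32 UMIs in all against 135 of Sox2. Sox2 itself was low per cell. After thinning, ventral basal-like cells had a Sox2 UMI in 4.29% (1.59% to 9.09%) and proximal ones in 2.52% (1.61% to 3.76%), against 0.723% (0.235% to 1.68%) of proximal luminal-like cells of the proximal library and 0 of 381 Tgm4-rich cells, which allows up to 0.787%. Unthinned these shares were 14.9%, 23.0%, 25.5% and 4.66%, and macrophage-like cells had 0 of 79, which allows up to 3.8%.

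Between the libraries the members were compared within like-named cells, with region and kit version not separable. Of secretory luminal-like cells, which differ in lobe type, 3 of 5 members (Gata2, Gata3 and Sox4) were past 2-fold and higher in the proximal library, where 47.1% of 15462 genes were past it (44.5% higher, 2.5% lower). Without the abundant genes Sox4, at 1.68-fold (1.48 to 1.90), no longer passed. Within Msmb-rich cells Gata2 was 4.50-fold (3.20 to 6.52) and Gata3 3.25-fold higher (2.46 to 4.39), 2 of 5 members, where 30.1% of 12162 genes were past 2-fold (28.7% higher, 1.36% lower). Of these cells, 60 of 107 ventral and 8 of 163 proximal ones held over 5% of their UMIs in Sbp and Spink1. The setting that leaves out mixed cells does not apply to them. Without the abundant genes Gata2 stood at 21.7 CPM ventral against 81.2 CPM proximal, and Gata3 at 32.8 against 88.9 CPM. Within Sbp-rich cells 1 of 5 was past 2-fold, where 17.5% of 13384 genes were (15.4% higher, 2.09% lower). This was Gata2 at 31.2-fold (10.9 to 122), from 4 ventral and 29 proximal UMIs, the latter at the macrophage-like level, and after subtraction of 5% free RNA it no longer passed. Gata3 and Sox9 were 1.31-fold (1.15 to 1.5) and 1.38-fold (1.27 to 1.49) higher there.

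Proximal luminal-like cells had 2 of 6 members past 2-fold, both higher in the proximal library, where 32.3% of 13817 genes were past it (17% higher, 15.3% lower). Gata2 was 13.3-fold higher (3.66 to 110) from 2 ventral UMIs, and Sox4 2.41-fold higher (1.70 to 3.53). Sox9 differed by a ratio of 1.17 (1.05 to 1.30), and Gata3 was 1.80-fold lower (1.47 to 2.18). With mixed cells left out, 4 members were past 2-fold: Gata2 at 7.67-fold (2.11 to 63.5) and Sox4 at 5.56-fold (2.81 to 12.9) higher, and Gata3 at a ratio of 0.4 (0.324 to 0.5) and Sox2 at a ratio of 0.488 (0.307 to 0.821). Sox9 was then at a ratio of 0.889 (0.787 to 1.01), on the other side of 1. Basal-like cells also had 2 of 6 past 2-fold, where 36.9% of 13038 genes were (21.9% higher, 15% lower). Gata2 was 7.92-fold higher (1.40 to 315) from 1 ventral UMI. Gata6 counts as past 2-fold because its ventral count was 0 against 66 UMIs. It was 1.30-fold higher when the ventral group is set to 3 UMIs, and the lower limit of its exact interval was 1.03, so a 2-fold difference is not shown at this depth. Sox2 was 1.61-fold lower (1.06 to 2.37) in proximal basal-like cells.

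Over the 18 groups with at least 20 cells, levels of the members were set against each other and against 9844 other genes as Pearson correlations of log2(CPM + 1). These groups share libraries and depth, so the values are a description. Sox2 and Sox9 gave the highest r among the 15 pairs, 0.83, followed by Gata3 and Sox9 at 0.74. Gata2 and Gata3 gave 0.46, and Gata3 and Gata6 gave the lowest, -0.057. The genes most like Gata2 were Myo3b (0.90), Dvl1 (0.88) and A4galt (0.86), and those most like Gata3 were Rnf128 (0.90), Rassf7 (0.86) and Mrpl9 (0.85). For Gata6 they were Prkd1 (0.93), Ebf3 (0.93) and Tppp3 (0.91), and for Sox2 Irx5 (0.90), Sall3 (0.89) and Fam47e (0.89). For Sox4 they were Pcsk5 (0.88), Ddah2 (0.88) and Trip6 (0.88), and for Sox9 Atp1b1 (0.93), Ripk4 (0.92) and Rnf144b (0.92).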

How the data were processed

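The deposited matrices give raw counts of UMIs for every gene in every barcode, which the authors made with Cell Ranger 7.0.0 on mm10, per the submitters' processing notes. The gene annotation behind the counts and the selection of barcodes are not given in the sources used here. Kit versions are those the labels' protocols tie to the library names on the deposited files.

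The 6 members, the lists and the comparisons were chosen with earlier results of these data known. Barcodes with fewer than 500 genes or over 10% mitochondrial UMIs were removed, 226 ventral and 635 proximal. Scrublet called 7 and 4 cells, too few to count as doublet removal. With scanpy 1.11.5 on Python 3.11.15, cells were scaled to 10000 UMIs, and 2000 variable genes without members and lists gave 30 components, 15 neighbours and Leiden clusters at resolution 1, 12 ventral and 21 proximal. Clusters were named by their top-scoring marker class, with 3 or more of its markers detected in 25% of cells. A cluster stayed unnamed where markers of other classes outnumbered its own in its 10 leading genes. Names are rebuilt and may differ from the study's.

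UMIs were summed per group of at least 20 cells, which left out 6 smooth muscle-like cells. CPM have exact Poisson intervals, shares Clopper-Pearson intervals, and ratios exact conditional intervals (scipy 1.17.1), all covering counting error only. Where 0 cells had a UMI, the share said to be allowed is that of 3 cells and not an exact limit. A gene was past 2-fold with a ratio of at least 2 or at most 0.5, an interval excluding 1 and at least 20 UMIs in both groups together. All members were named, and from each list at most 3 genes per comparison and direction with the largest ratio among those past 2-fold. Similar genes were the 3 with the highest r among genes with 50 UMIs and 20 CPM in some group. Coordinates are those of GENCODE on GRCm38. The steps were tested on simulated data. The values of 1 gene of the partner list are not reported here. Levels without a group's top cell were added after seeing the data.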

Additional observations from a re-analysis of the deposited data

Results flagged for a closer look

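Gata3 was marked because its ratio pointed opposite ways in the libraries. For proximal luminal-like over secretory luminal-like cells the ventral log2 ratio was 2.29 and the proximal one -1.11. For basal-like over secretory luminal-like cells they were 2.33 and -0.59. With 1 library each, the difference was not tested. The secretory luminal-like cells held 1603 Sbp-rich and 107 Msmb-rich cells in the ventral library, and 160 Sbp-rich, 163 Msmb-rich and 386 Tgm4-rich cells in the proximal library. Gata3 in the cells set against them differed as well. It stood at 104 CPM in ventral and 57.9 CPM in proximal proximal luminal-like cells, and at 108 and 83.1 CPM in basal-like cells.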

How the results depend on the processing

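Each result was recomputed under other choices of cell filter, doublets, clustering, variable genes, scaling, weighting, free RNA, mixed cells, fold and UMI minimum, and under 1 added after seeing the data, in which unnamed clusters took their best-scoring class. Of 1067 values of single ratios, 868 stayed within the counting interval, 198 moved and, of those past 2-fold, 1 reversed: Gata3 in proximal luminal-like over Sbp-rich cells of the proximal library, at a log2 ratio of -0.088 on the total without the abundant genes. Ratios not past 2-fold that changed direction, such as Sox9 in Tgm4-rich over Sbp-rich cells, are among those that moved. Of 234 counts of members, 223 stayed within 1.5 times. On that total, 5 members were past 2-fold in Tgm4-rich over Msmb-rich cells. The stricter cell filter left 1 member in basal-like cells between libraries, subtraction of free RNA left 0 in Sbp-rich cells between libraries, and leaving out mixed cells gave 4 in proximal luminal-like cells between libraries. At 4-fold, 2 members remained past the limit in proximal over secretory luminal-like cells of the proximal library, and 1 each in basal over proximal luminal-like cells of the ventral and of the proximal library, Msmb-rich over Sbp-rich and Tgm4-rich over Msmb-rich cells of the proximal library, and proximal luminal-like and Msmb-rich cells between libraries. Of 216 shares, 116 moved, as shares follow depth. List counts without the abundant genes, also added after seeing the data, stand beside the lists whose counts they move. No paired analysis was possible because each group has 1 library. Depth limits Gata6 and Sox2: at 1000 UMIs per cell, Gata6 was found in 5 of 510 fibroblast-like cells.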
